A study of Sparus aurata with 9 samples.

Results

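miR-7133 was examined in cultured muscle cells of the gilthead sea bream (Sparus aurata), as all entries of the deposited microRNA table that carry this miRBase number. The table held 862 entries with 830 distinct sequences, and 2 of them, 1 from each arm of the hairpin, were miR-7133. The miRNA was chosen by its normalized reads, since both sequences were higher in cells given amino acids than in cells kept without them, and the values of that comparison are given as a description, with no test.

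A miRNA is cut from a hairpin transcript, first in the nucleus by Drosha and then in the cytoplasm by Dicer, as a short duplex of its 5p and 3p arms. One strand usually stays in an Argonaute protein and guides it to messenger RNAs that pair with the seed, bases 2 to 8 from the 5′ end of the strand, while the other strand is mostly degraded. The prefixes of both entries point to miRBase records of cichlid fishes, the Nile tilapia (oni) for the 5p arm and Burton's mouthbrooder (abu) for the 3p arm. Skeletal muscle is better known for the myomiRs, the muscle-enriched miR-1, miR-133, miR-206 and miR-499.

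The sequences of both arms are shown as listed, in DNA letters, because all values below rest on these 2 strands, and the seed is in capitals.
miR-7133-5p: gATGTTGAgtatcaaactgta
miR-7133-3p: tAGTTTGAtacacagcacaata
The first, 21 nt long, is listed without an arm and with a suffix for 1 base fewer at its 3′ end than the tilapia record. It is called 5p here since its partner is named 3p. The partner, 22 nt long, carries no suffix. In RNAduplex both strands paired with each other over 17 bases, 15 in Watson-Crick pairs and 2 in G-U pairs, at a predicted energy of -18.7 kcal/mol. The longest run without a gap was 11 pairs, from base 9 to base 19 of the 5p arm and base 1 to base 11 of the 3p arm, so that all 7 seed bases of the 3p arm lay inside it. At the 3′ ends, 2 bases of the 5p arm and 4 of the 3p arm were left unpaired. G and C made up 33.3% of the 5p and 31.8% of the 3p bases. Neither seed occurred in any of the other 828 distinct sequences of the table, nor did bases 2 to 7 alone, and no other sequence lay within 3 edits of either arm. The position of the hairpin in the genome was not analysed here.

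The cells were primary cultures from fast-twitch muscle of fingerlings, treated from day 8 of culture. CTR libraries came from cells kept in nutrient restriction medium for 36 h, and AA and IGF1 libraries from cells that spent 12 h in it and then 24 h with amino acids or with insulin-like growth factor 1, with 3 libraries in each group. By the study's methods the restriction medium was a salt solution with glucose and vitamins, the AA medium was DMEM, and the IGF1 medium was the restriction medium with sea bream Igf-1 and albumin as carrier, so that the groups differ in more than the named agent. The study's cultures were independent of each other, but which libraries came from one culture is not in the labels. The main p-values therefore come from a model without pairing. They set group differences against the spread between these libraries.

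Depth was taken as the sum of normalized reads over all entries, divided by the step between low values in each library. It was 7045311 to 8010694 reads in CTR, 9766620 to 11214788 in AA and 7241678 to 9534840 in IGF1. Sequences listed in several entries count more than once in this sum and in the total behind each ppm value. The marker sums that follow count each sequence once. All 4 muscle miRNA numbers were found, in 13 sequences with a summed level of 59096 to 81544 ppm of the library's normalized reads in CTR, 83165 to 96625 in AA and 60068 to 75403 in IGF1. Of the epithelial markers, 4 of 5 numbers were listed and miR-141 was not. They summed to 76.9 to 94.97 ppm in CTR, 49.0 to 57.1 in AA and 48.7 to 77.7 in IGF1. Liver-enriched miR-122 stood at 57.3 to 70.7, 34.2 to 44.0 and 36.1 to 49.0 ppm in the same order. The ranges of blood, endothelial, neural and endocrine markers overlapped between AA and CTR. Depth and the sums of the muscle, epithelial and liver markers thus did not overlap between AA and CTR. Of the 594 entries tested, 22.6% did not overlap between these groups in either direction. The most abundant muscle entry, miR-206, did overlap between them, so a sum does not stand for every marker in it. miR-122 lay below its CTR range in IGF1 as well, and the epithelial sum did so in part. The part of depth and of these markers in the values of miR-7133 was not tested. In such bulk libraries fewer cells of a type and less RNA per cell cannot be told apart.

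Both arms of miR-7133 were lowest in CTR, intermediate in IGF1 and highest in AA. With a mean of 435 normalized reads over the 9 libraries the 5p arm ranked 222nd of the 862 entries, and with 440 the 3p arm ranked 217th. Both arms together held 65.0 ± 15.03 ppm of the normalized reads in CTR (SD, n = 3), 138 ± 14.1 ppm in AA and 100.1 ± 18.8 ppm in IGF1.

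The 5p arm had 366, 213 and 243 normalized reads in CTR replicates 1 to 3. It had 645, 606 and 562 in AA and 518, 348 and 413 in IGF1. All AA libraries lay above all others, while IGF1 replicate 2 lay below CTR replicate 1. The CTR mean was 274 ± 80.9 (SD, n = 3), the AA mean 605 ± 41.3 and the IGF1 mean 426 ± 85.8. The SD was thus 29.5% of the mean in CTR and 6.84% in AA. CTR replicate 1 was the high one of its group. Over the 594 entries tested, all AA libraries lay above all CTR libraries in 12.6% and above all IGF1 libraries in 9.6%. The share with AA above both groups was not counted.

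The 3p arm had 324, 227 and 315 normalized reads in CTR replicates 1 to 3. It had 603, 671 and 532 in AA and 432, 358 and 496 in IGF1. Here the 3 groups did not overlap at all, and CTR replicate 2 was the low one of its group. The CTR mean was 288 ± 53.2 (SD, n = 3), the AA mean 602 ± 69.5 and the IGF1 mean 428.7 ± 69.3. Over the 594 entries tested, all IGF1 libraries lay above all CTR libraries in 5.56%. The share with all 3 groups apart was not counted.

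**Figure D1:**
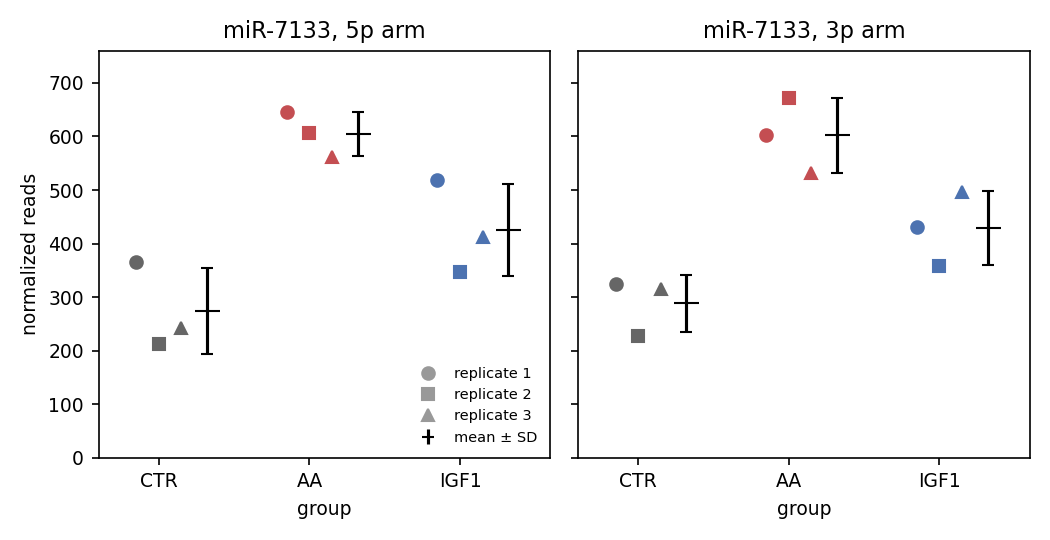
Normalized reads of the 5p arm (left) and the 3p arm (right) of miR-7133 in each library of CTR, AA and IGF1. Markers give the replicate number, and the black bar is the mean ± SD (n = 3). The AA libraries, at 562 to 645 for 5p and 532 to 671 for 3p, all lie above those of the other groups, and in 5p the IGF1 libraries reach down into the CTR range.

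These values rest on 185 to 835 reads per library for the 5p arm and 197 to 806 for the 3p arm. Each value divided by the step of 1 read gave a whole number within 0.02 reads. The smallest, 185 reads of the 5p arm in CTR replicate 2, has an exact Poisson 95% interval of 159 to 214 reads, and the largest, 835 reads in AA replicate 1, of 779 to 894 reads, for counting error only. Counting error came to between 3.75% and 6.65% of a value on average per group and arm. The SD between libraries, which includes counting error, ran from 6.84% to 29.5% of the group mean and was larger in each group and arm.

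The comparison of AA with CTR, which asks what differs when amino acids return in another medium, was the one that chose the miRNA. The mean was 2.21 times that of CTR for the 5p arm and 2.09 times for the 3p arm. On the scale of log2(normalized reads + 1) the differences were 1.18 (SE 0.23) and 1.07 (SE 0.20). The lowest AA library exceeded the highest CTR library 1.54-fold in 5p and 1.64-fold in 3p. Of the 594 entries tested, 12.6% had all AA libraries above all CTR libraries (22.6% had no overlap in either direction), 7.41% had a log2 difference over 1, and 1.85% were called higher in limma (2.36% in either direction). By their log2 difference the arms ranked 36th (5p) and 41st (3p) of the 594. With 1 library left out the log2 difference ran from 1.02 to 1.40 in 5p and from 0.91 to 1.16 in 3p, with the highest value in 5p without CTR replicate 1 and the lowest values in both arms without CTR replicate 2.

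The IGF1 libraries took no part in the choice of the miRNA, but the CTR libraries did. The comparison of IGF1 with CTR is thus not independent of the choice, which favours low CTR values and so a positive difference. miR-7133-5p was 1.56 times as high in IGF1 as in CTR, a log2 difference of 0.66 (SE 0.23, 95% interval 0.14 to 1.17). miR-7133-3p was 1.49 times as high, a log2 difference of 0.57 (SE 0.20, 95% interval 0.13 to 1.02). Neither passed the limma test (adjusted p = 0.367 each, and between 0.0876 and 0.721 over the alternatives). In limma 0% of the 594 entries were called in this comparison, with 61 at an unadjusted p under 0.05, both arms among them. All IGF1 libraries lay above all CTR libraries in 5.56% of entries, the 3p arm being one of these (13.3% had no overlap in either direction), and 6.57% had a log2 difference over 1, neither arm among them. With a replicate block 2 entries were called, and the adjusted p was 0.118 for 5p and 0.176 for 3p.

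The direct comparison of AA with IGF1 asked whether the treatments left different levels. Here the AA libraries had taken part in the choice, which favours high AA values and so a positive difference. miR-7133-5p was 1.42 times as high in AA, a log2 difference of 0.52 (SE 0.23, 95% interval 0.01 to 1.03, limma adjusted p = 0.553). miR-7133-3p was 1.40 times as high, a log2 difference of 0.49 (SE 0.20, 95% interval 0.05 to 0.94, limma adjusted p = 0.517). Neither arm passed, nor did it under any alternative tried, where the adjusted p ran from 0.0967 to 0.999. In both arms all AA libraries lay above all IGF1 libraries, as in 9.6% of the entries tested (15.3% had no overlap in either direction), while 3.2% had a log2 difference over 1 and 0.842% were called. In the order AA, IGF1, CTR, the neighbouring groups therefore did not differ beyond the threshold in either arm. The intervals above lay over 0, but in the 20 alternatives that of AA minus IGF1 included 0 in 10 for 5p and 5 for 3p, and that of IGF1 minus CTR in 3 for 5p and 2 for 3p.

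**Figure D2:**
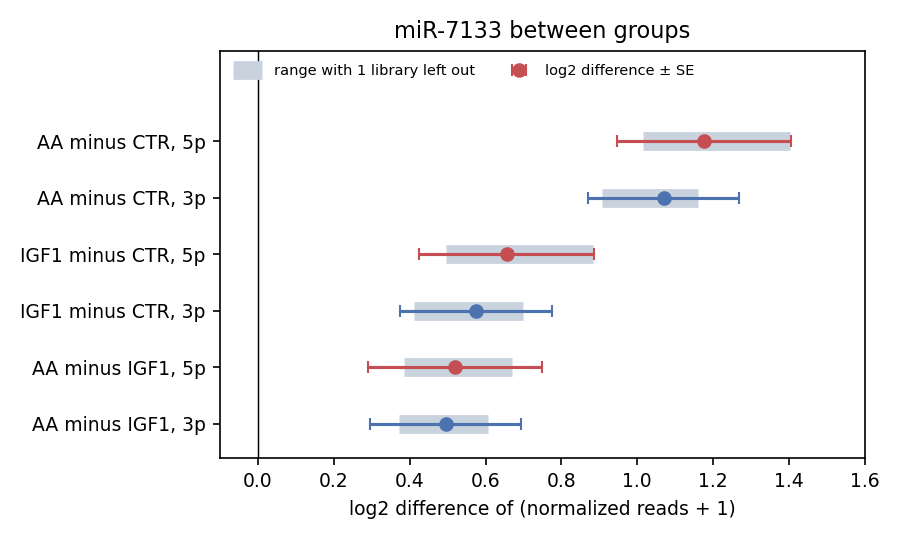
Log2 differences of normalized reads + 1 between groups for each arm of miR-7133. Points are estimates of the limma fit over 9 libraries with their SE, red for 5p and blue for 3p, and grey bars span the estimates with 1 library left out. All 6 estimates and all grey bars lie above 0, from 0.37 for 3p in AA minus IGF1 to 1.40 for 5p in AA minus CTR.

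The ratio of the arms does not depend on how libraries were scaled. It rests on the reads that chose the miRNA, since a rise of both arms limits how far their ratio can differ between AA and CTR, and it is given as a description with no test. The 5p arm gave 53.1%, 48.4% and 43.5% of the reads of both arms in CTR replicates 1 to 3. It gave 51.7%, 47.5% and 51.4% in AA and 54.5%, 49.3% and 45.4% in IGF1. Neither arm was the major one: the 5p arm was ahead in 4 of 9 libraries, and the exact (Clopper-Pearson) 95% interval included 50% in 5 of 9. The CTR mean was 48.3% ± 4.76 (SD, n = 3), the AA mean 50.2% ± 2.37 and the IGF1 mean 49.7% ± 4.58. On the log2 scale the ratio of 5p to 3p averaged -0.10 ± 0.28 for CTR (SD, n = 3), 0.01 ± 0.14 for AA and -0.02 ± 0.26 for IGF1. The ranges of the 3 groups overlapped. Replicate 1 had the highest 5p share in all 3 groups.

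**Figure D3:**
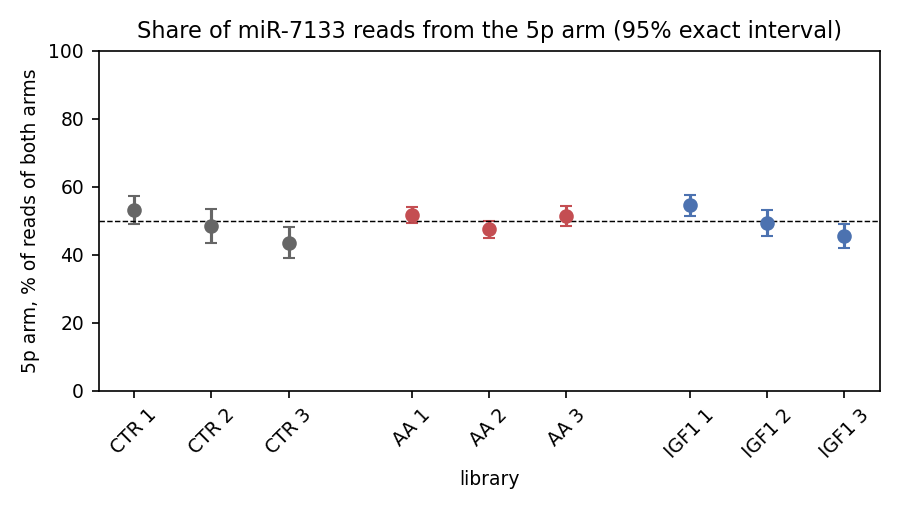
Share of the 5p arm among the reads of both miR-7133 arms in each library, in percent, with exact 95% intervals for counting error. The dashed line marks 50%. Shares run from 43.5% in CTR replicate 3 to 54.5% in IGF1 replicate 1, and the 3 groups lie over each other.

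Among the hairpins whose arms could be paired by name, miR-7133 had the mean ratio nearest to 0, which is given as a description. Arms were paired by name, with the most abundant sequence named for each arm, and 87 other hairpins had both arms past a minimum of 10 normalized reads in 3 libraries. Arms whose names differ in a precursor number, such as miR-21 and mir-21-1-p3, were not paired. Hairpins with both arms in the table can therefore be missing here. The levels of different small RNA sequences can also differ through ligation and amplification, whose part in these ratios was not tested. The mean log2 ratio of 5p to 3p was -0.03 in miR-7133, and none of the 87 others was closer to 0, nor was any of 69 others at a minimum of 50 normalized reads or of the 87 in CTR libraries alone. The median distance from 0 of the 87 was 4.10 on the log2 scale, 68 of them (78.2%) had one arm more than 4 times as high as the other, and 6 (6.90%) had arms within 2-fold.

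This pairing left out sequences listed without an arm where both arms were named, and so took a minor variant for the main strand in some hairpins, miR-206 among them. All sequences of an arm were therefore also summed, in an alternative chosen after seeing the data. Left out was 1 miR-216b sequence listed without an arm, which resembled neither named arm, so that hairpin kept its ratio of -5.75. With sums the ratio moved by more than 1 log2 unit in 12 of the 88 hairpins common to both sets. miR-7133, with 1 sequence per arm, kept its ratio, and none of 89 others was closer to 0. The median distance from 0 was 4.48 with sums, 71 others (79.8%) differed more than 4-fold and 7 (7.87%) lay within 2-fold.

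The arms of miR-7133 were also correlated across libraries, though not in step within every group. From IGF1 replicate 1 to 3 the 5p arm went from 518 to 413 normalized reads and the 3p arm from 432 to 496. Pearson's r between them over the 9 libraries was 0.93 on the log2 scale, and 0.62 once the group means were taken off. In the 89 others with summed sequences the median r between arms was 0.13, and 3 had a higher r than miR-7133. With group means taken off the median was 0.11 and 23 were higher. The log2 ratio of the arms had an SD of 0.21 over the 9 libraries in miR-7133, with a median of 0.42 in the others, 5 of which had a smaller one. With single sequences, 2 of 87 had a higher r, 20 a higher r with group means taken off and 5 a smaller SD. Both arms were chosen for a difference between groups, which raises the first of these correlations. Points share libraries and differ in depth, and low arms vary more by counting.

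**Figure D4:**
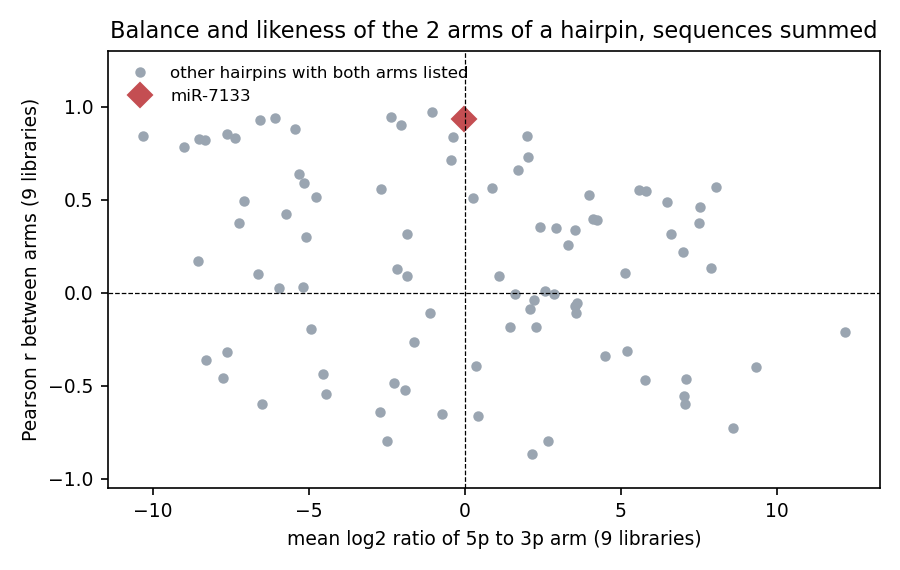
Each point is a hairpin with both arms paired by name and all sequences of an arm summed, 89 in grey and miR-7133 as a red diamond. The x axis is the mean log2 ratio of the 5p to the 3p arm and the y axis Pearson's r between the arms, both over 9 libraries. miR-7133 sits at a ratio of -0.03 and an r of 0.93, while most grey points lie several log2 units to either side.

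The sequences whose levels followed miR-7133 most closely were sought among 563 other tested sequences, by Pearson's r with the mean of its arms over the 9 libraries. The closest was miR-33b-3p (r = 0.97), from a family whose hairpins lie in the genes of sterol regulatory factors in vertebrates, with a mean of 858 ± 64.3 normalized reads over the CTR libraries (SD, n = 3), 1239 ± 124.1 over the AA and 1079 ± 85.0 over the IGF1 libraries. Next were miR-499b-3p (r = 0.95) and mir-301a-p5 (r = 0.95). The list ended with miR-133a-2-5p (r = 0.93) and mir-21-1-p3 (r = 0.91). All 5 carry an arm name, and 2 belong to myomiR families. After removal of group means r stayed at 0.87 to 0.93 in all but miR-133a-2-5p (0.47). The choice by r over the same libraries favours such values, and r within groups was not examined over all 563 sequences. In the 4 other than miR-133a-2-5p, as in miR-7133, CTR replicate 1 was high in its group and CTR replicate 2 low. miR-499b-3p, for example, had 117, 46.1 and 49.8 normalized reads in CTR replicates 1 to 3.

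In the opposite direction stood mir-29a-1-p5 (r = -0.97), with a mean of 115 ± 31.7 normalized reads over the CTR libraries (SD, n = 3), 43.4 ± 1.45 over the AA and 76.5 ± 4.53 over the IGF1 libraries. miR-10b, whose gene lies in a Hox cluster, had an r of -0.95. A miR-92a-3p variant with 1 substitution, of the miR-17-92 cluster family, had an r of -0.94. After removal of group means these values were -0.86, -0.91 and -0.90, which the choice by r over the same libraries also favours. Of the 563 sequences compared, 6 had an r over 0.9 and 9 an r under -0.9. All correlations are over 9 libraries that share the same group differences, and they are given as a description.

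**Figure D5:**
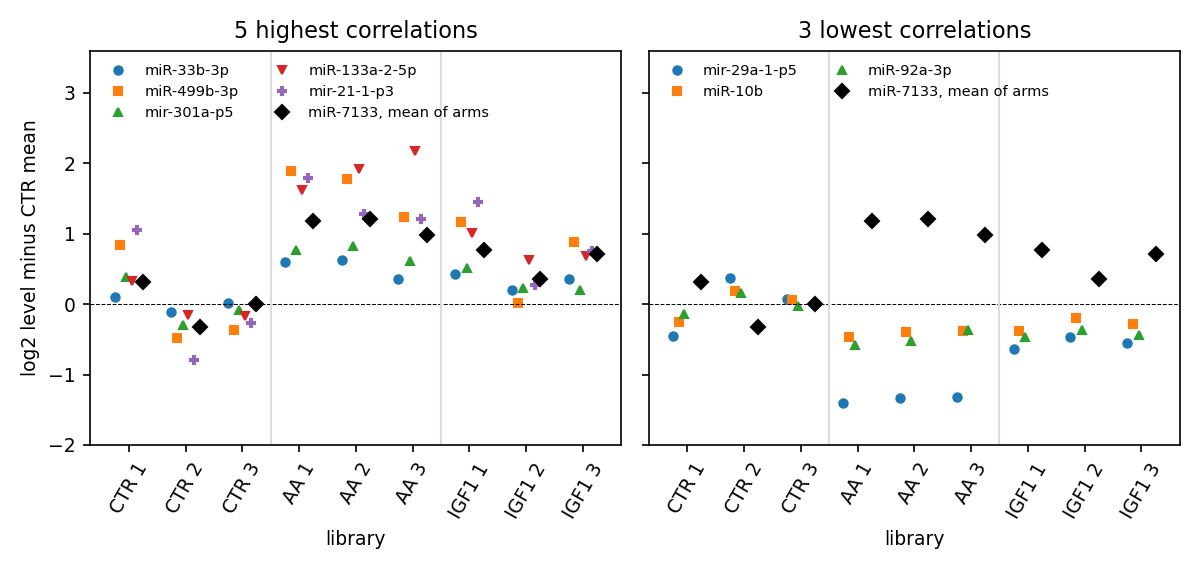
Log2 level in each library minus the mean of the CTR libraries, for the mean of the miR-7133 arms (black diamonds) and for the 5 sequences with the highest (left) and the 3 with the lowest (right) Pearson's r with it. Those on the left lie above their CTR mean in all 3 AA libraries, like miR-7133, and those on the right below it.

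The myomiRs, which mark muscle cells, are set beside miR-7133 as a description. miR-7133 was chosen for its rise in AA over CTR, which favours its own differences in such a comparison. Of 13 tested myomiR sequences 5 rose in AA, none fell and all 13 were positive, where 1.85% of all entries tested were called higher and 2.36% in either direction, with a median log2 difference of 0.96 over the list and 0.08 over all 594 entries. The risers, named after their values were seen, were miR-1-5p, miR-133b-5p, miR-133a-2-5p, miR-206-5p and the major arm of miR-1, which had 29547 ± 1032 normalized reads in CTR (SD, n = 3) and 57579.7 ± 5303 in AA (log2 difference 0.96, SE 0.13, limma adjusted p = 0.00393). Of the remaining myomiRs, the most abundant entries of miR-133, miR-499 and miR-206 missed the threshold, with log2 differences of 0.65, 0.86 and 0.31.

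In IGF1 none of the 13 was called in limma, where 0% of the 594 entries tested were. An unadjusted p under 0.05 was found in limma for 4 of the 13 and for 61 of the 594 entries. The list median was 0.23, with 0.055 over all entries. The arms of miR-7133 had 0.66 and 0.57, which its choice against the same CTR libraries favours, so no ranking against the list is drawn. The log2 differences of the 13 reached from -0.73 (a miR-206-3p variant) to 1.57 (miR-1-5p), with 1.39 in miR-133b-5p, 0.78 in miR-133a-2-5p and 0.06 in the major arm of miR-1. In AA against IGF1 the myomiRs miR-1 and miR-133a-2-5p were called, both higher in AA, where 0.842% of the entries tested were called. All 13 were positive here, and 11 had an unadjusted p under 0.05 in limma, as did 52 of the 594 entries. The list median was 0.89, with -0.000255 over all entries.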

How the data were processed

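The 9 small RNA libraries were sequenced as single-end reads. Per the study's methods, the authors trimmed the reads with scripts of their own, kept unique sequences of a fixed length range and assigned them by BLAST to miRBase precursors. The deposited table gives a signal, normalized reads per entry and library. The formula of this normalization is not given in the sources used here. The authors' mean per group and their p-value over the 3 groups were also deposited and were not used for results. The members and lists were chosen with earlier results of these data known.

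An entry was tested where 3 or more libraries had 10 or more normalized reads (594 of 862, both miR-7133 arms among them). One linear model over the 9 libraries was fitted to log2(normalized reads + 1) in limma 3.58.1 (R 4.3.3) with an intensity trend, with two-sided p-values adjusted by Benjamini-Hochberg over all entries tested, a threshold of 0.05 and no fold threshold. A fold change on this scale understates that of low entries. The script was tested on simulated data.

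The value of 1 read was the largest step of which at least 75% of the values under 150 were whole multiples, within 0.02 reads. Between 79.3% and 83.1% were whole and between 96.4% and 97.7% were multiples of 0.5 reads, so reads were not recovered throughout and no count model was run. Pairing of the arms was predicted with RNAduplex 2.7.2, and other steps used Python 3.11.15 with pandas 2.3.3 and SciPy 1.17.1. Hairpin arms were paired by miRBase name, with the most abundant sequence named for each arm (one without an arm only where its partner was named), at least 6 edits apart, and also with all sequences of an arm summed, except 1 of miR-216b that resembled neither named arm. Precursor numbers in the names were kept, so arms whose names differ in such a number were not paired. A permutation test laid out for the arm ratio is not reported, because the ratio rests on the reads that chose the miRNA. Sequences named beside miR-7133 were the 5 with the highest and the 3 with the lowest Pearson's r over the libraries, and the most abundant entry of each myomiR. MyomiR entries that rose were named in addition, after their values were seen.

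Equal replicate numbers paired the libraries of IGF1 and CTR by their deviations from the group means (r between 0.301 and 0.401, each of 6 libraries closest to its own number), which comes from the data and not from the labels. AA and CTR (-0.115 to 0.266) and AA and IGF1 (0.0471 to 0.351) did not meet that rule. Alternatives were other pseudocounts, filters and scalings, no intensity trend, library weights, the groups compared alone, a replicate block and each library left out.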

Additional observations from a re-analysis of the deposited data

How the results depend on the processing

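Each difference of a miR-7133 arm kept its sign in all 20 alternatives, and no tested one passed the threshold in any of them. Log2 differences ran from 1.02 to 1.40 (5p) and from 0.91 to 1.16 (3p) in AA minus CTR, from 0.50 to 0.88 and from 0.41 to 0.70 in IGF1 minus CTR, and from 0.38 to 0.67 and from 0.37 to 0.61 in AA minus IGF1. Counts of calls over all entries moved more, and the cause was not tested. For AA against CTR the count was 14, with 104 under library weights, 31 with a replicate block and 8 (without AA replicate 2) to 40 (without CTR replicate 1) with 1 library left out. After quantile normalization 9 of 16 calls were higher, as against 11 of 14. For AA against IGF1 it was 5, with 10 at a filter of 50 normalized reads, 1 without an intensity trend, 20 under library weights, 10 with a replicate block and 1 to 13 with 1 library left out. It was 13 without CTR replicate 1, 2 without IGF1 replicate 2 or 3, and 1 when IGF1 replicate 1, AA replicate 2 or AA replicate 3 was left out. For IGF1 against CTR it was 0, with 5 under library weights, 2 with a replicate block and 0 to 2 with 1 library left out, the 2 without CTR replicate 1. The block changed no call of a miR-7133 arm. In AA and CTR 2 of 6 libraries were closest to their own replicate number, and in AA and IGF1 5 of 6. Counting error lay below the SD between libraries, which contains it. Whether the number of libraries, 3 a group, or depth limits the precision more was not tested.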

Other observations

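A few other hairpins had arms of similar level, here with all sequences of an arm summed, and were singled out after their values were seen. Among the hairpins paired by name, miR-30c came next to miR-7133 in balance. It had a mean log2 ratio of 5p to 3p of 0.27 and an r between arms of 0.51 over the 9 libraries. Its entry miR-30c-3p had the same differences between groups as the entry mir-30a-1-p3, and from which hairpin these reads came was not tested. miR-301b stood at 0.37 with an r of -0.39, and miR-29c at 0.43 with an r of -0.66. miR-728a, with a ratio of -0.39, had an r of 0.84, and of 0.87 with group means taken off, above the 0.62 of miR-7133.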
